A study of Mus musculus with 12 samples.

Results

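The collagen genes of mouse are described here as 36 genes, in 12 RNA-seq libraries of mouse embryonic fibroblasts (MEFs) and of such cells on day 4 of reprogramming. They were chosen by name, as the deposited gene rows named Col, a number, the letter a and a number, and by level, as a mean of at least 0.5 TPM in any of the 6 groups. TPM is a length-scaled level that sums to the same total in each library. Of 20325 gene rows, 41 had such a name and 36 of them met the level. The 5 others were Col13a1, Col19a1, Col4a3, Col4a4 and Col6a4. The member nearest the threshold was Col17a1, with a highest group mean of 0.51 TPM, and the nearest row outside was Col4a4, with 0.285 TPM. Of the 36, 32 reached 0.5 TPM in all 6 groups, Col20a1 in 5, Col9a1 in 3, and Col17a1 and Col22a1 in 2. Col6a3, Col6a5, Col21a1 and Col26a1 are not among the 41 and were not analysed here.

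All cells carried floxed AF10 alleles (AF10 fl/fl), the OSKM reprogramming cassette and rtTA. AF10, the product of Mllt10, is a partner of DOT1L, the methyltransferase of histone H3 lysine 79. The groups named fl had received an empty adenovirus (Ad5-CMV-Empty) and the groups named creAF10 an adenovirus with Cre recombinase (Ad5-CMV-Cre). MEF_fl and MEF_creAF10 were grown in MEF medium. The 4 day 4 groups were given 2 µg/mL doxycycline, which switches the cassette on, in DMSO (Day4_fl_DMSO and Day4_creAF10_DMSO) or in 5 µM SGC0946, an inhibitor of DOT1L (Day4_fl_SGC and Day4_creAF10_SGC). Each group had 2 libraries. Day 4 cells grew on gelatin with DR4 feeder MEFs, in medium for embryonic stem cells that held LIF. Feeder cells are fibroblasts too, so their collagen reads cannot be told apart from those of the reprogramming cells, and medium, feeders and doxycycline all differ between MEFs and day 4. No cells without floxed alleles received Cre, so an effect of the Cre virus cannot be told apart from that of AF10 deletion. Mllt10 was at 18.9 and 20.6 TPM in MEF_fl and at 15.5 and 15.8 in MEF_creAF10, and the AF10-deleted libraries kept 69.3% to 81.7% of the fl level of the same replicate number and condition. Each file has 1 transcript for Mllt10, so reads of the deleted part are not separated from the rest. The libraries held 14602536 to 22800753 expected counts.

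Collagens are secreted proteins whose chains wind around each other into a rope-like helix, with chains of the same kind or of different kinds depending on the type. Fibrillar collagens form the tension-bearing fibres of connective tissue, FACIT collagens (fibril-associated collagens with interrupted helices) sit on their surface, and type IV collagens form the sheets of basement membranes. The short-chain network collagens of types VIII and X are a separate class below. Fibroblasts are the main source of types I, III, V and VI, and reprogramming of fibroblasts is known to silence much of this programme. Each gene below encodes 1 chain.

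Fibrillar collagens made up most collagen RNA in MEFs. Col1a1, Col1a2 and Col3a1, the chains of types I and III, together held 71.6% to 74.2% of the collagen TPM in the 4 MEF libraries. Col1a1 stood at 8041 and 5553 TPM in replicates 1 and 2 of MEF_fl, Col1a2 at 7172 and 5133, and Col3a1 at 5665 and 4037. The lower value was that of replicate 2 for each of the 3. Col5a2 (1473 and 1433 TPM) and Col6a1 (1344 and 1125 TPM) came next, followed by Col5a1 (1112 and 659 TPM) and Col6a2 (943 and 696 TPM). Col5a1 and Col5a2 encode type V, which is built into type I fibrils and sets their width, and Col6a1 and Col6a2 encode chains of the beaded filaments of type VI. In MEF_fl 5 members had a mean of at least 1000 TPM, 14 of at least 100, 23 of at least 10 and 34 of at least 1. All 36 members summed to 2.43% ± 0.536 of all TPM in MEF_fl and 2.31% ± 0.33 in MEF_creAF10 (SD, n = 2 per group).

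**Figure D1:**
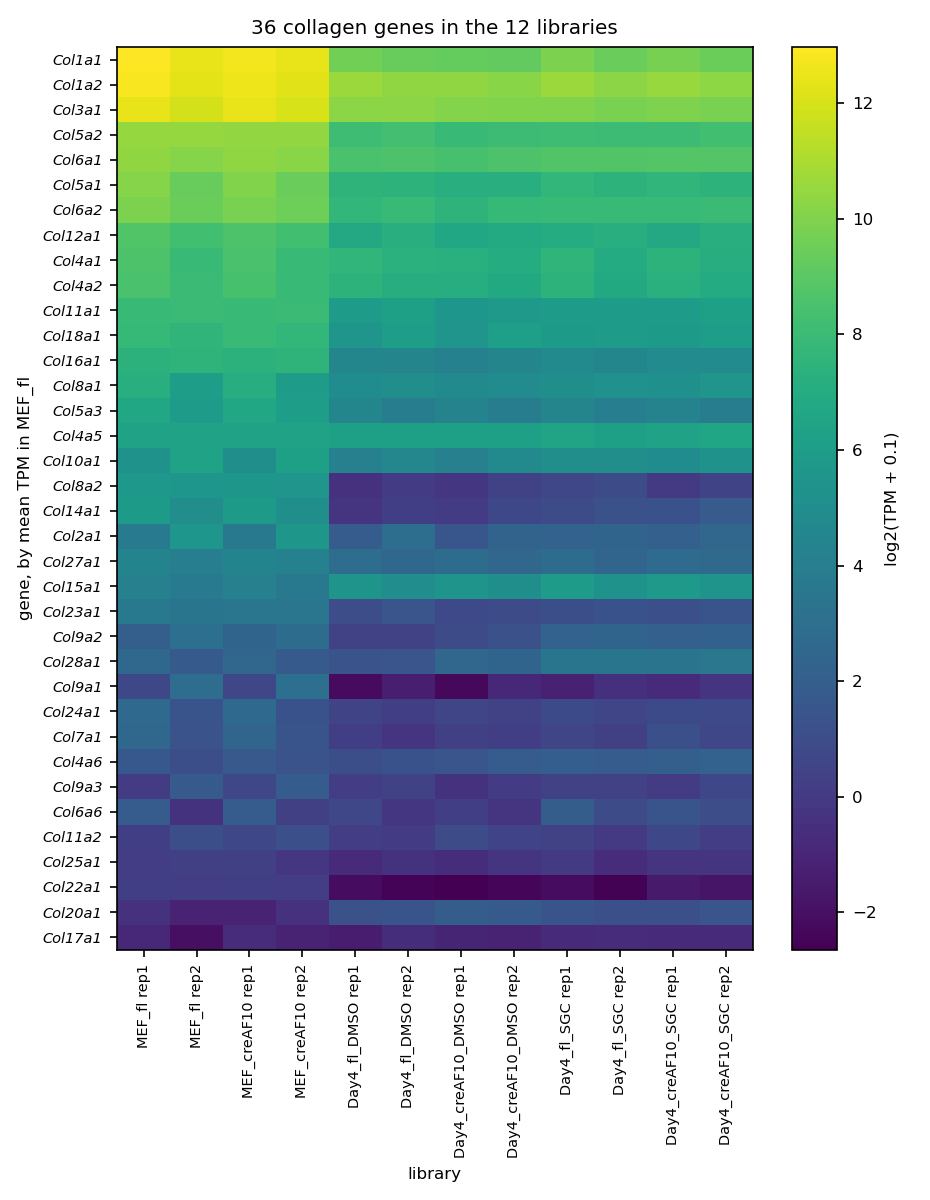
Heat map of log2(TPM + 0.1) of the 36 collagen genes (rows, ordered by mean TPM in MEF_fl) in the 12 libraries (columns). Col1a1, Col1a2 and Col3a1 are the 3 brightest rows in the 4 MEF columns, and the rows of Col8a2 and Col14a1 go from at least 34.1 TPM in MEFs to at most 3.41 TPM on day 4.

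The first question was how collagen genes differed between MEFs and day 4 of reprogramming in DMSO. In fl cells most fell. The sum of the 36 was 0.53% ± 0.0239 of all TPM in Day4_fl_DMSO (SD, n = 2), against 2.43% in MEF_fl, and every day 4 library lay between 0.456% and 0.565% while the 4 MEF libraries lay between 2.06% and 2.81%. With edgeR's quasi-likelihood test and Benjamini-Hochberg adjustment over all genes, 25 members fell and 2 rose at an adjusted p under 0.05, or 27 of 36, where 52% of the 13936 genes tested passed it (26.3% lower and 25.7% higher). The median log2 change of the members was -1.78, against 0.01 over all genes tested. In AF10-deleted cells 26 members fell and 2 rose, where 55% of all genes passed, with a median of -1.63 against 0.02. In bulk RNA, fewer cells that make a collagen and less RNA per cell cannot be told apart.

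**Figure D2:**
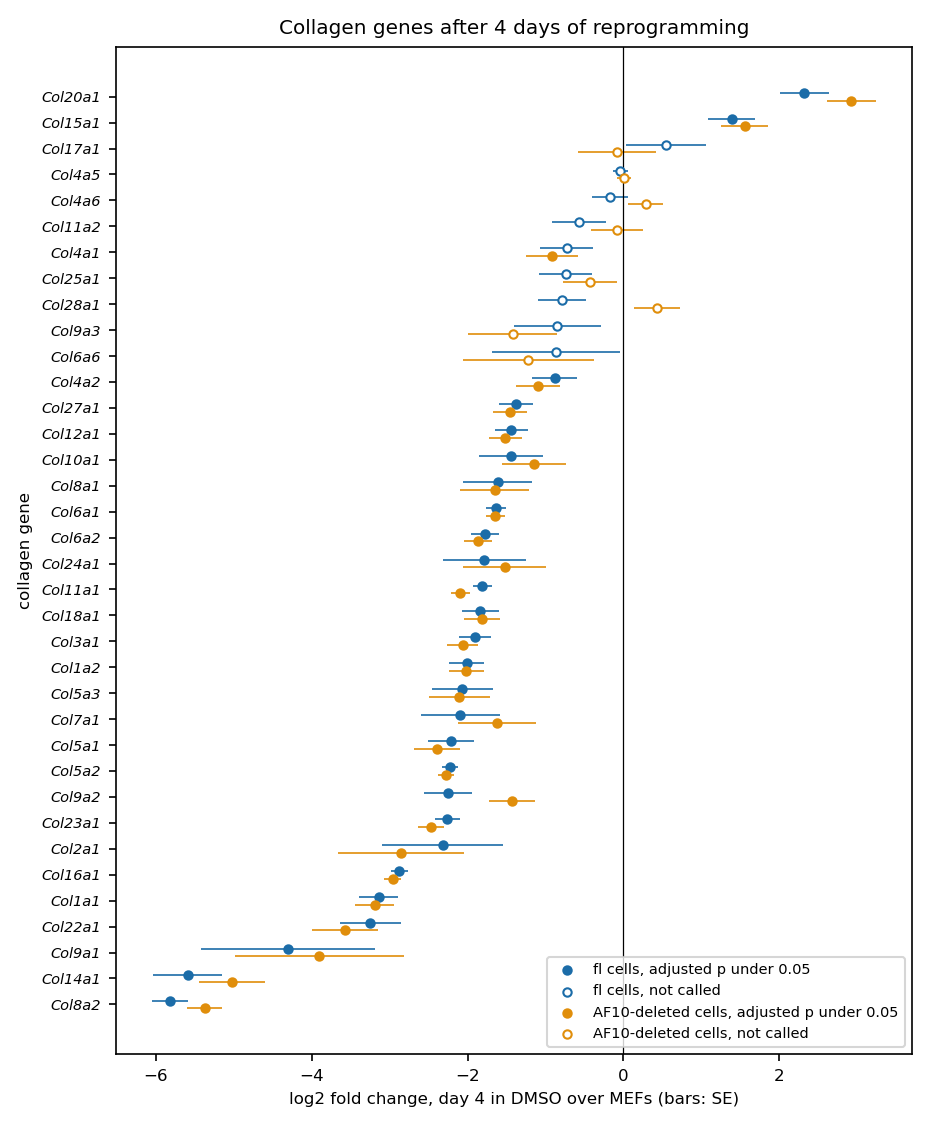
Log2 fold change of each collagen gene on day 4 in DMSO over MEFs (points, with SE bars), in fl cells (blue) and in AF10-deleted cells (orange), filled where the adjusted p was under 0.05 without a replicate block. Col20a1 and Col15a1 are the filled points above 0, and Col8a2 and Col14a1 lie lowest in both.

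The fibrillar class fell to 19.4% of its MEF_fl sum in Day4_fl_DMSO, and 10 of its 11 members passed the test, all lower. Col1a1 went from 8041 and 5553 TPM to 795 and 662, which is -3.14 ± 0.25 on the log2 scale (fitted change ± SE, with 2 libraries in each group). Col1a2 went to 1566 and 1324 TPM (-2.01 ± 0.23), so the groups did not overlap for either chain of type I. Col3a1 stood at 1249 and 1205 TPM on day 4 (-1.90 ± 0.20), and Col5a1 at 186 and 177 (-2.21 ± 0.29). Col11a1, a chain that nucleates thin fibrils in cartilage, fell from 249 and 255 TPM to 60.0 and 75.9. Col11a2, at 1.11 and 2.03 TPM in MEF_fl and 1.03 and 0.96 on day 4, was the only fibrillar member that did not pass (-0.57 ± 0.34, adjusted p = 0.191). Col2a1, the main fibril chain of cartilage, fell from 12.9 and 48.0 to 3.68 and 7.92 TPM (adjusted p = 0.0368). Its MEF replicates differed several-fold from each other. Its adjusted p was 0.287 without MEF_fl replicate 2, 0.177 and 0.0673 without Day4_fl_DMSO replicate 1 or 2, and 0.0501 to 0.0508 without Day4_fl_SGC replicate 2 or either Day4_creAF10_SGC library. Col24a1 (6.38 and 2.59 TPM to 1.36 and 1.11) had 0.164 without MEF_fl replicate 1, and 0.072 and 0.115 without Day4_fl_DMSO replicate 1 or 2.

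Of the FACIT class, 6 of 8 fell and 1 rose, and the class sum was 25.9% of its MEF_fl level. Col14a1, which lines fibrils in tendon and skin, fell from 57.6 and 34.1 TPM to 0.7 and 1.08 (log2 change -5.59 ± 0.44). Col16a1 went from 169 and 179 TPM to 22.5 and 22.3 (-2.88 ± 0.11), while Col12a1, the most abundant of the class, kept 110 and 141 TPM of 419 and 300. Col22a1 fell from 1.08 and 1.05 TPM to 0.13 and 0.08. Col22a1 reached the 0.5 TPM of the membership rule in the MEF groups only, and Col9a1 in the MEF groups and Day4_creAF10_SGC. The rule therefore favours a fall for these 2. Both are counted among the 6 of this class and the 25 of all members that fell, and among the 26 in AF10-deleted cells. Their falls are not independent support for those counts. Likewise Col20a1 missed 0.5 TPM in MEF_fl only. Type IX collagen decorates the type II fibrils of cartilage. Its chains Col9a1 (1.54 and 7.66 TPM to 0.12 and 0.3) and Col9a2 (4.2 and 8.34 to 1.24 and 1.23) fell, and Col9a3 (0.98 and 3.4 to 1.04 and 1.26) did not pass (-0.85 ± 0.56, adjusted p = 0.229). The call of Col9a1 was lost without MEF_fl replicate 2 (adjusted p = 0.0716) and without Day4_fl_DMSO replicate 1 (0.0787) or 2 (0.0516). The day 4 values of Col9a3 lie within the range of its MEF values. Col20a1 went against the class: it rose from 0.64 and 0.35 to 2.2 and 2.55 TPM, by 2.32 ± 0.32 on the log2 scale.

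The short-chain network collagens fell in 3 of 3 cases, but by unequal amounts. Col8a2 fell from 50.7 and 47.6 TPM to 0.64 and 0.98, the lowest log2 change of the 36 (-5.82 ± 0.23). Its partner Col8a1, the other chain of type VIII, which underlies endothelia and the cornea, kept 31.5 and 32.9 of 142 and 64.9 TPM (-1.61 ± 0.44). Col10a1, the collagen of hypertrophic cartilage, went from 39.7 and 80.6 to 18.1 and 23.4 TPM (-1.45 ± 0.41). In counts, Col8a2 fell from 1725 and 1533 reads to 24 and 44, in libraries of 18711382 and 17477675 counts and of 16834238 and 21109210 counts. The call of Col8a1 was lost without MEF_fl replicate 1 (adjusted p = 0.118) and without Day4_fl_DMSO replicate 1 (0.0787) or 2 (0.0741), and that of Col10a1 without MEF_fl replicate 2 (0.126) and without Day4_fl_DMSO replicate 1 (0.103) or 2 (0.0572).

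The basement membrane class kept the largest share, 58.8% of its MEF_fl sum, and 1 of its 4 members passed the test. Col4a2 fell from 355 and 252 to 175 and 137 TPM (-0.88 ± 0.28), while Col4a1 (386 and 241 to 199 and 159 TPM) had an adjusted p of 0.104 (-0.73 ± 0.34). With the replicate number as a block Col4a1 passed (adjusted p = 0.000149). The call of Col4a2 was lost without MEF_fl replicate 1 (adjusted p = 0.173) or Day4_fl_DMSO replicate 2 (0.163). Col4a5 was at 81.7 and 83.2 TPM in MEF_fl and at 76.3 and 76.0 in Day4_fl_DMSO, a log2 change of -0.04 ± 0.09. Col4a6, which lies next to Col4a5 on chromosome X, was at 3.11 and 2.08 and then at 2.04 and 2.32 TPM (-0.17 ± 0.23). Multiplexins, which are cut to release anti-angiogenic fragments, split: Col18a1 fell from 227 and 193 to 46.0 and 65.7 TPM (-1.84 ± 0.24), and Col15a1 rose from 17.5 and 13.1 to 43.1 and 32.7 TPM (1.39 ± 0.30).

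Type VI fell, with Col6a1 at 354 and 399 TPM on day 4 (-1.64 ± 0.12) and Col6a2 at 211 and 242 (-1.78 ± 0.18). In the same class Col6a6 (3.62 and 0.67 to 1.48 and 0.78 TPM, adjusted p = 0.409) and Col28a1 (5.98 and 3.31 to 2.48 and 2.62 TPM, adjusted p = 0.0532) did not pass. Col28a1 passed with the replicate block (adjusted p = 0.0343). Of the transmembrane collagens Col23a1 fell from 12.6 and 10.8 to 1.97 and 2.66 TPM, while Col25a1 (adjusted p = 0.0934) and Col17a1, the hemidesmosome collagen of epithelia (0.44 and 0.15 to 0.28 and 0.55 TPM, adjusted p = 0.395), did not. Col7a1, the anchoring fibril of skin, fell from 5.82 and 2.43 to 1.11 and 0.74 TPM, a call lost without MEF_fl replicate 1 (adjusted p = 0.0524) or Day4_fl_DMSO replicate 2 (0.0653). With the replicate number as a block, which takes the difference between the replicate numbers out, 27 members fell and 2 rose in fl cells (59.4% of all genes passed, 30.2% lower and 29.2% higher) and 27 fell and 2 rose in AF10-deleted cells (62%, 31% lower and 31% higher).

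The ratios of chains that share a protein, and that of Col3a1 to Col1a1 of types III and I, differed between the stages by unequal amounts. Col1a1 over Col1a2 in TPM was 1.06 to 1.14 in the 4 MEF libraries and 0.473 to 0.606 in the 8 day 4 libraries, with no overlap. Col3a1 over Col1a1 went from 0.705 to 0.857 in MEFs to 1.08 to 1.82 on day 4. Col8a1 over Col8a2 went from 1.36 to 2.81 up to 21.2 to 49.2. Col4a1 over Col4a2 was 0.933 to 1.085 in MEFs and 1.06 to 1.17 on day 4. These ranges overlapped, but within a replicate number the ratio was higher on day 4 in DMSO in each of 4 pairs, from 1.085 to 1.138 and 0.955 to 1.163 in fl and from 1.068 to 1.173 and 0.933 to 1.122 in AF10-deleted cells. Col5a1 over Col5a2 was 0.46 to 0.756 in MEFs and 0.536 to 0.759 on day 4, and in DMSO it was lower than in MEFs in replicate 1 (0.755 to 0.67 in fl) and higher in replicate 2 (0.46 to 0.565). Col6a1 over Col6a2 was 1.42 to 1.64 in MEFs and 1.65 to 1.85 on day 4, adjacent ranges that did not overlap. The ratios are given with no test.

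Col4a1 and Col4a2 are a known head-to-head pair, and their promoters are shown because both genes read from the same stretch. RefSeq's start sites (build GRCm38.p6) lie 21 bases apart, so the windows overlap. Each window runs from 250 bases before to 50 bases after the start, read on the gene's own strand. Capitals mark 3 motifs on either strand. The first is the CCAAT box, which reads ATTGG on the other strand. Another is the GC box GGGCGG, which reads CCGCCC there. The last is the TATA box TATAAA, or TTTATA there. Col4a1 is at chr8:11312777-11313076 on the minus strand and Col4a2 at chr8:11312555-11312854 on the plus strand.
Col4a1: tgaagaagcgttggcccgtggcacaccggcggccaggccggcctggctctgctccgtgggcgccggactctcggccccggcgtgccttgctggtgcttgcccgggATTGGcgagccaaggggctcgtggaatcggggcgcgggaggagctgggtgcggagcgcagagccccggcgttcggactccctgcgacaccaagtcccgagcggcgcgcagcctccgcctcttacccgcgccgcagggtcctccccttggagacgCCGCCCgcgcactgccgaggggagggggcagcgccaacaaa
Col4a2: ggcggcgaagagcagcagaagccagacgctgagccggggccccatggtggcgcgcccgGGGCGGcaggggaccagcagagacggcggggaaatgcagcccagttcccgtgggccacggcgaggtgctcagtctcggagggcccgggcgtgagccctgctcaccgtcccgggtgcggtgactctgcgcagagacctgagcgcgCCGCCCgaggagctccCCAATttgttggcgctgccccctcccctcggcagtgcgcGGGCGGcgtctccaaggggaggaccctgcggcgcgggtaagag
The Col4a1 window holds 1 CCAAT and 1 GGGCGG match and 37 CpG, and the Col4a2 window 1 CCAAT and 3 GGGCGG matches and 33 CpG. The authors' reads were mapped to mm9, a different build, so these coordinates come from RefSeq alone. RefSeq's table held a promoter for 29 of the 36 members, in 32 windows. Of those, 21 held GGGCGG, 12 CCAAT and 4 TATAAA, while 35.7%, 37.4% and 13.6% of all 32851 promoter windows did. A match is a stretch of letters, not a shown binding site.

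The other genes that make collagen work also fell in fl cells between MEFs and day 4. Of 19 genes of procollagen modification and folding 17 fell and 0 rose, and 19 had a negative change. Crtap, a subunit of the prolyl 3-hydroxylase complex, was at -0.97 ± 0.08, Plod3, a lysyl hydroxylase, at -1.20 ± 0.09, and Fkbp14, a foldase, at -1.68 ± 0.13. Of 13 tested genes of procollagen export and processing 8 fell and 0 rose, among them Adamts2, the protease that trims the amino end of procollagen (-2.14 ± 0.14), Sparc, a collagen chaperone (-2.12 ± 0.12), and the COPII coat subunit Sec24d (-1.35 ± 0.07). Of 8 tested collagen receptors 7 fell and 0 rose, with Mrc2, which takes up collagen, at -1.59 ± 0.11 and the integrin subunit Itga2 at -2.25 ± 0.39. Of 8 transcription factors of collagen genes 5 fell and 0 rose, among them Sox9, which drives cartilage collagens (-3.09 ± 0.24), Creb3l1 (-2.60 ± 0.28) and Scx, the tendon factor (-1.51 ± 0.24). The share of all tested genes that passed lower was 26.3%.

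Markers of other cells moved over the same step. The summed level of 10 fibroblast markers, dominated by Vim, was 12791 to 12824 TPM in MEF_fl and 12758 to 13422 in Day4_fl_DMSO, with 6 of the 10 genes lower and Vim higher (0.80 ± 0.12). The 9 chondrocyte markers summed to 96.0 to 230 TPM in MEF_fl and 20.5 to 26.2 in Day4_fl_DMSO, the 6 Schwann cell and glia markers to 50.4 to 74.1 and 13.4 to 13.8, and the 8 macrophage and blood markers to 9.89 to 18.6 and 77.8 to 89.5. Of the blood list, Ptprc stayed at 0.2 TPM or less in Day4_fl_DMSO. The 6 endothelial markers summed to 8.9 TPM in each MEF_fl library and to 41.8 to 53.7 on day 4, of which Tek alone held 41.6 and 53.1. The 8 epithelial markers summed to 6.59 to 7.99 and 30.9 to 37.4 TPM, with Cldn4 at 0 in MEF_fl. Their part in the collagen changes was not tested.

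In AF10-deleted cells Col8a2 and Col14a1 had the lowest log2 changes of the 36 and Col20a1 the highest. Col1a1 changed by -3.19 ± 0.25 on the log2 scale, Col8a2 by -5.37 ± 0.23, Col14a1 by -5.02 ± 0.43, Col15a1 by 1.56 ± 0.30 and Col20a1 by 2.93 ± 0.31. Col4a1 passed here (-0.92 ± 0.34, adjusted p = 0.0484), though not without any 1 of 7 libraries (up to 0.287 without MEF_creAF10 replicate 1), and Col28a1 (0.43 ± 0.29) did not. Col9a3 (-1.42 ± 0.57, adjusted p = 0.0592) passed with the replicate block (0.00869). The difference between the 2 stage changes, tested as an interaction over all genes, passed for 0 members without a block and for 0 with the replicate block, where 0% of all genes passed in either (edgeR; 1 member and 507 genes at an unadjusted p under 0.05 without the block, and 0 members by DESeq2). With a block for each stage it passed for 1 member, Col28a1 (1.19 ± 0.19, adjusted p = 0.00116), where 1.16% of all genes passed (0.933% higher and 0.222% lower).

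SGC0946 was compared with DMSO on day 4 to show the effect of inhibiting DOT1L while the factors act. In fl cells Col28a1 and Col9a2 rose and no member fell at an adjusted p under 0.05, 2 of 36 where 1.11% of all genes passed (0.883% higher). Col28a1, a collagen VI-like chain known from peripheral nerve, was at 2.48 and 2.62 TPM in DMSO and at 10.8 and 10.8 in SGC0946, a 4.3-fold higher level by the fit (2.10 ± 0.30 on the log2 scale, adjusted p = 0.0196). Those levels exceed all 4 MEF values of 3.31 to 5.98 TPM. Col9a2 was at 1.24 and 1.23 TPM in DMSO and at 4.69 and 5.08 in SGC0946 (2.00 ± 0.31, adjusted p = 0.0199), which is inside its MEF range of 4.2 to 8.34. In counts, Col28a1 went from 90 and 115 reads to 347 and 338, and Col9a2 from 29 and 35 to 97 and 103. Both calls were lost without either DMSO library or either SGC0946 library of fl cells, with adjusted p of 0.111 to 0.207 for Col28a1 and 0.124 to 0.207 for Col9a2, while the log2 changes stayed at 2.09 to 2.12 and 1.95 to 2.05. Leaving out Day4_creAF10_SGC replicate 1, which is not part of the contrast, put Col9a2 at 0.0501. The 8 epithelial markers summed to 30.9 to 37.4 TPM in DMSO and 89.5 to 96.8 in SGC0946, with 3 of the 7 tested higher without a block and 7 with the block per stage, and the 9 chondrocyte markers were at 20.5 to 26.2 and 25.1 to 31.2 TPM, with Sox9 at 1.85 and 2.72 and then 2.07 and 2.63 and Acan at 0.11 TPM or less. Of the 8 chondrocyte markers tested, 0 passed without a block and 2 rose with the block per stage, Acan and Lect1. With the block per stage 17.7% of all genes passed (10.6% higher and 7.1% lower). Lect1, a cartilage glycoprotein, went from 1.25 and 1.51 TPM to 5.37 and 6.72 (2.15 ± 0.27 in that fit). The 6 Schwann cell and glia markers summed to 13.4 to 13.8 and 11.5 to 12.4 TPM. Their part in the 2 changes was not tested.

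The promoters of Col28a1 and Col9a2 are shown because these 2 members were called without a block. Capitals and windows are as above. Col28a1 is at chr6:8192568-8192867 on the minus strand and Col9a2 at chr4:121039316-121039615 on the plus strand.
Col28a1: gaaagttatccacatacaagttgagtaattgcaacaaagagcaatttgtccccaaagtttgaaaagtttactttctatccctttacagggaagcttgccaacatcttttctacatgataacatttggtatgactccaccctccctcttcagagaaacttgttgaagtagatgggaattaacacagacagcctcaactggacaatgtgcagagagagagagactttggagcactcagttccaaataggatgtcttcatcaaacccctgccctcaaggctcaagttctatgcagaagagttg
Col9a2: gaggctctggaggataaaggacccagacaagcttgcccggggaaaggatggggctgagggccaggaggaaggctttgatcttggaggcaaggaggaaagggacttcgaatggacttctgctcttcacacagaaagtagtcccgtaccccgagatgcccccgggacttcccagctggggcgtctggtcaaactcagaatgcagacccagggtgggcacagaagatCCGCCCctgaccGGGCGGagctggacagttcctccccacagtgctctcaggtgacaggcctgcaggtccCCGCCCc
The Col28a1 window holds none of the 3 motifs and 0 CpG, and the Col9a2 window holds 3 GGGCGG matches and 10 CpG. The median ratio of observed to expected CpG was 0.456 over the 32 member windows and 0.384 over all promoters. The genes next to them in RefSeq, chosen by position after the 2 changes were known, moved less: C1galt1 and Mios beside Col28a1 changed by 0.53 ± 0.25 and 0.10 ± 0.11 on the log2 scale, and Smap2 and Zmpste24 beside Col9a2 by 0.22 ± 0.14 and -0.05 ± 0.08, with adjusted p of 0.404 to 0.87. With the block for each stage C1galt1 (0.53 ± 0.10, adjusted p = 0.000441) and Smap2 (0.22 ± 0.08, adjusted p = 0.0467) rose in fl cells. In AF10-deleted cells that fit again called C1galt1 higher with SGC0946 (0.58 ± 0.10, adjusted p = 0.000487). Smap2, Mios and Zmpste24 did not pass there (adjusted p of 0.309 to 0.731). The difference between each gene and its neighbours was not tested.

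**Figure D3:**
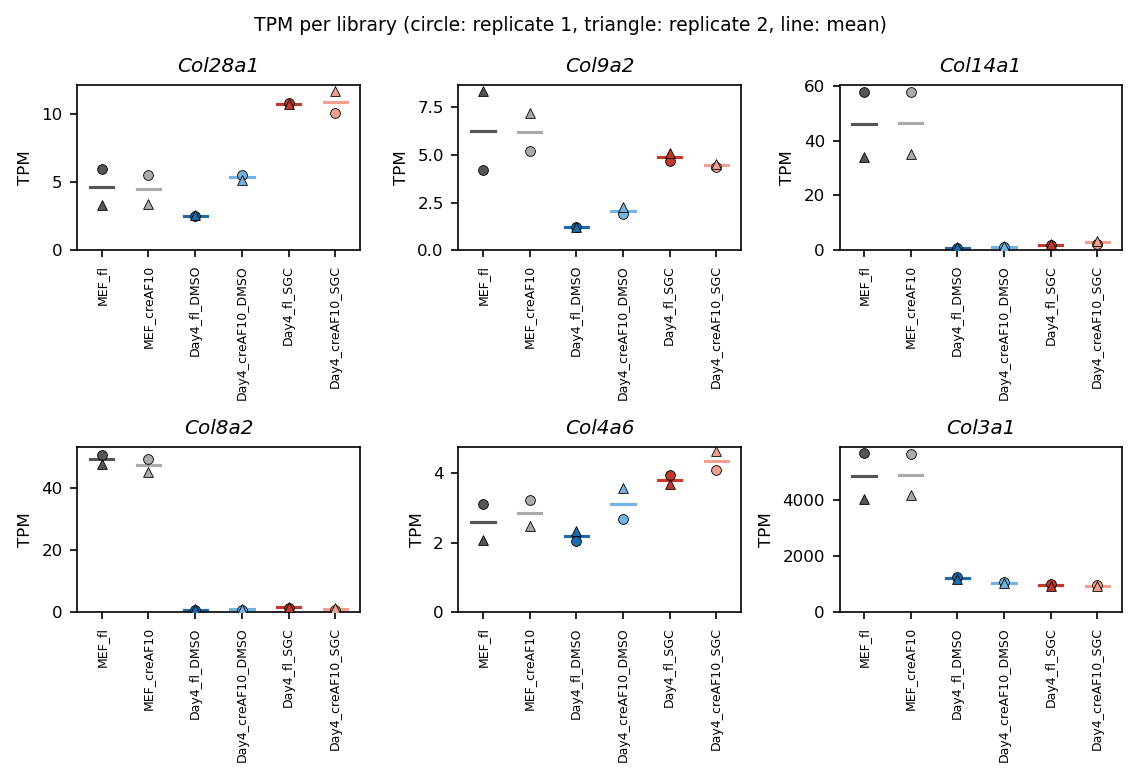
TPM per library of 6 collagen genes in the 6 groups (points, replicates 1 and 2 as circles and triangles, lines at the mean). In Col28a1 the 4 SGC0946 libraries stand above all others, and in Col14a1, Col8a2 and Col3a1 the 4 MEF libraries do.

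Other members moved in fl cells where the difference between replicate numbers was taken out by a block for each stage. That fit called 10 members higher and 1 lower, where 17.7% of all genes passed (10.6% higher and 7.1% lower). Besides Col28a1 and Col9a2, these were Col6a6 (1.33 ± 0.18, 1.48 and 0.78 TPM to 3.75 and 1.87), Col14a1 (1.19 ± 0.16, 0.7 and 1.08 to 1.79 and 2.22), Col8a2 (1.06 ± 0.20, 0.64 and 0.98 to 1.52 and 1.8), Col4a6 (0.83 ± 0.14, 2.04 and 2.32 to 3.95 and 3.67), Col10a1 (0.73 ± 0.09, 18.1 and 23.4 to 33.2 and 33.9), Col7a1 (0.51 ± 0.17), Col15a1 (0.46 ± 0.07) and Col8a1 (0.21 ± 0.07). Col3a1 fell by 0.31 (SE 0.07), from 1249 and 1205 TPM to 1027 and 926. The DMSO and SGC0946 libraries of Col15a1 overlapped (43.1 and 32.7 to 61.9 and 41.3 TPM), although this fit called it. The 11 fibrillar members had 5 positive and 6 negative changes and a median of -0.02, the 8 FACIT members a median of 0.17 and the 3 short-chain members 0.73, beside -0.01 over all genes. The p-values of this fit set the size of a change against the spread left over the 12 libraries once group and replicate number are taken out. That spread rests on 2 replicate numbers only.

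Of the genes around collagen, without a block Itga1, the integrin subunit that binds collagen, rose (0.92 ± 0.17, adjusted p = 0.0378) as 1 of 8 receptors, and Runx2, the bone factor, fell (-0.78 ± 0.12, adjusted p = 0.0199) as 1 of 8 transcription factors. None of 19 folding or 13 export genes passed. Adamts3, which like Adamts2 trims procollagen, was at -0.70 ± 0.17 (adjusted p = 0.107), and the block per stage called it lower and Adamts14 (0.78 ± 0.17) higher. That fit called 4 of 19 folding genes higher and 0 lower, among them P4ha2 (0.38 ± 0.11) and Leprel1 (0.43 ± 0.15). Over all genes tested, 10.6% passed higher and 7.1% lower in that fit, and 0.883% and 0.23% without a block.

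In AF10-deleted cells SGC0946 called 0 members without a block, where 0.00718% of all genes passed, 7 members stood at an unadjusted p under 0.05 and DESeq2 called 1 member, Col16a1. Col28a1 went from 5.56 and 5.2 TPM to 10.1 and 11.7 (0.97 ± 0.29, adjusted p = 0.495) and Col9a2 from 1.89 and 2.24 to 4.37 and 4.54 (1.06 ± 0.30, adjusted p = 0.458). With the block for each stage 14 members rose and 1 fell, where 7.75% of all genes passed (5.28% higher and 2.47% lower). The epithelial marker sum went from 49.2 to 57.9 TPM in DMSO to 92.0 to 98.8 in SGC0946, with 0 of the 7 tested called without a block and 7 with it, and its part was not tested. The members that rose were Col6a6 (1.25 ± 0.20), Col14a1 (1.11 ± 0.14), Col9a2, Col28a1, Col10a1 (0.66 ± 0.09), Col7a1 (0.62 ± 0.16), Col16a1 (0.48 ± 0.09), Col8a1 (0.46 ± 0.07), Col4a6 (0.43 ± 0.13), Col11a1 (0.38 ± 0.08), Col1a1 (0.31 ± 0.08), Col5a1 (0.29 ± 0.07), Col15a1 (0.26 ± 0.07) and Col6a1 (0.24 ± 0.07), while Col20a1 fell (-0.61 ± 0.19). The DMSO and SGC0946 libraries of Col15a1 overlapped here too (44.2 and 35.7 to 56.8 and 42.5 TPM). The 9 members that rose in both fl and AF10-deleted cells are 90% of the 10 of fl cells and 64.3% of the 14 of AF10-deleted cells. Over all genes tested, the 590 that rose in both are 39.9% of 1480 and 80.2% of 736. The 2 contrasts use different DMSO libraries. Across the 36 members Pearson's r between the 2 sets of log2 changes was 0.625 and Spearman's rho 0.553, and over all genes r was 0.489; genes are not independent replicates, and all points share the 2 replicate numbers.

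**Figure D4:**
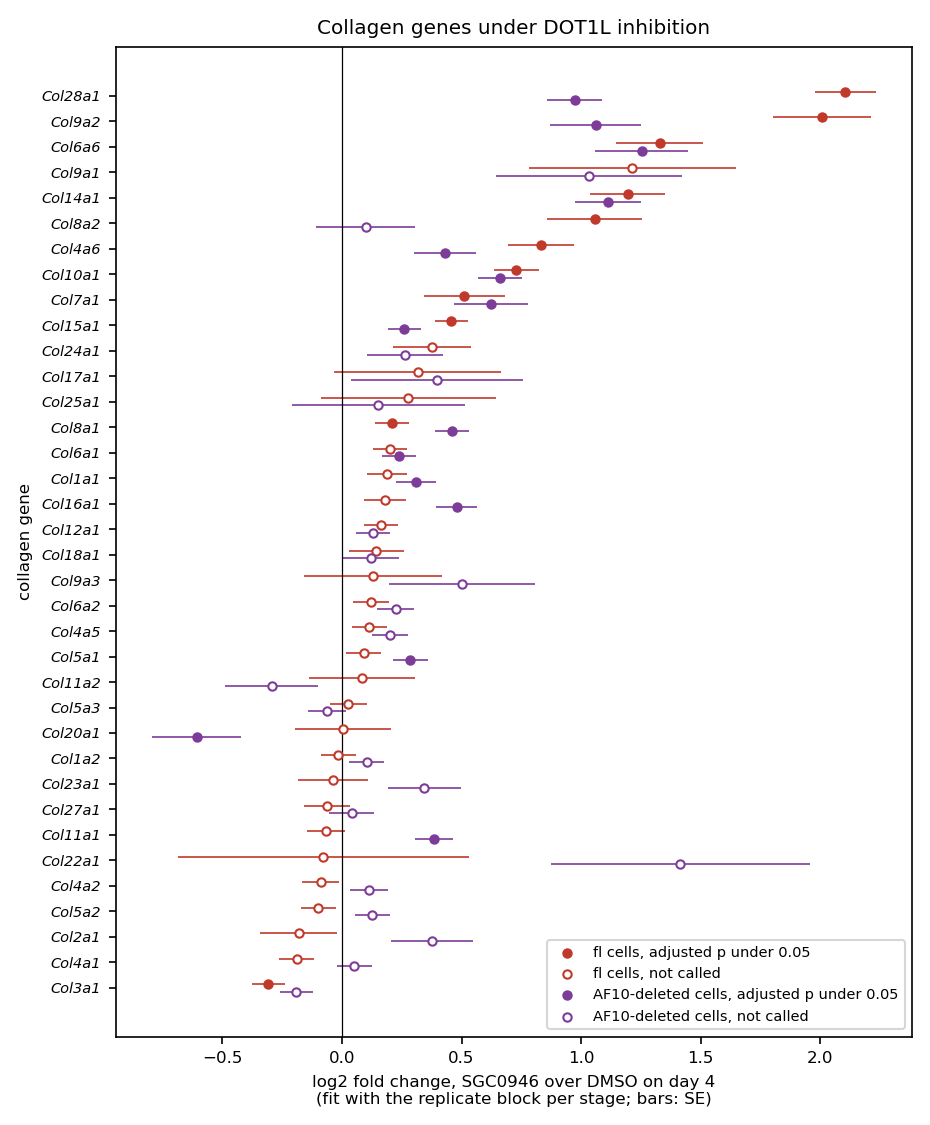
Log2 fold change of each collagen gene with SGC0946 over DMSO on day 4 (points, SE bars) in fl cells (red) and AF10-deleted cells (purple), from the fit with a replicate block per stage, filled where the adjusted p was under 0.05. Col28a1 and Col9a2 stand at about 2 in fl cells and near 1 in AF10-deleted cells.

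AF10 deletion was tested in MEFs and on day 4. In MEFs 0 members passed in any fit, where 0% of all genes passed without a block and 0.962% with the block for each stage (0.122% higher and 0.84% lower), 0 members had an unadjusted p under 0.05, and DESeq2 called 0. The members lay between -0.19 and 0.55, and 35 of 36 were within 0.5 of 0. Col1a1 was at 8041 and 5553 TPM in MEF_fl and 6596 and 5716 in MEF_creAF10 (-0.15 ± 0.23), and Col28a1 at 5.98 and 3.31 against 5.57 and 3.37 (-0.07 ± 0.30).

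On day 4 in DMSO 0 members passed without a block (0% of all genes), 5 had an unadjusted p under 0.05, and DESeq2 called 0. With the block for each stage 6 rose and 2 fell, where 6.74% of all genes passed (3.37% higher and 3.37% lower). Col28a1 was at 2.48 and 2.62 TPM in fl and at 5.56 and 5.2 in AF10-deleted cells (1.14 ± 0.14 with the block, adjusted p = 1.21e-05, and 0.591 without it). Col9a2 went from 1.24 and 1.23 to 1.89 and 2.24 TPM (0.81 ± 0.24), Col4a6 from 2.04 and 2.32 to 2.68 and 3.56 (0.59 ± 0.14), and Col20a1 from 2.2 and 2.55 to 3.84 and 3.29 (0.64 ± 0.18). Col11a2 (0.71 ± 0.20) and Col14a1 (0.58 ± 0.17) also rose, and Col11a1 (-0.34 ± 0.08) and Col4a1 (-0.25 ± 0.07) fell. The fl and AF10-deleted libraries of Col14a1 overlapped (0.7 and 1.08 to 1.01 and 1.54 TPM), although this fit called it. Col28a1, Col9a2, Col4a6 and Col14a1 are also among the genes that SGC0946 raised in fl cells. Their log2 changes with SGC0946 were 2.10, 2.01, 0.83 and 1.19 in the same fit. Both comparisons use the Day4_fl_DMSO libraries. The overlap over all genes was not counted, so nothing particular to collagens can be read from it. The epithelial marker sum was 30.9 to 37.4 TPM in fl and 49.2 to 57.9 in AF10-deleted cells in DMSO, and its part was not tested.

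Under SGC0946, AF10 deletion called 0 members in either fit, where 0% and 0.172% of all genes passed (0.0718% higher and 0.1% lower with the block), 2 members had an unadjusted p under 0.05 without the block and 7 with it, and DESeq2 called 0. Col28a1 was at 10.8 and 10.8 TPM in fl and 10.1 and 11.7 in AF10-deleted cells (0.01 ± 0.28). The interaction of deletion and inhibitor was 0 members without a block, where 0% of all genes passed, 3 members had an unadjusted p under 0.05 and DESeq2 called 0. With the block for each stage it was 1 member, Col28a1, where 0.395% of all genes passed (0.0718% higher and 0.323% lower). Its inhibitor effect was 2.10 ± 0.13 in fl and 0.97 ± 0.12 in AF10-deleted cells, a difference of -1.13 ± 0.17 (adjusted p = 0.000904). Col9a2 (-0.95 ± 0.29, adjusted p = 0.161) and Col8a2 (-0.96 ± 0.29, adjusted p = 0.158) had differences of similar size that did not pass.

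The 2 replicate numbers differed in their collagen levels in MEFs. Replicate 2 was lower than replicate 1 in both MEF groups for 27 members and higher for 7. Such counts were not made over all genes, for MEFs or for day 4. Nothing particular to collagens can therefore be read from the counts of members in this paragraph. Col2a1 (12.9 and 12.5 TPM in replicate 1, 48.0 and 49.2 in replicate 2), Col9a1 (1.54 and 1.51, 7.66 and 8.13) and Col9a3 (0.98 and 1.47, 3.4 and 3.62) were higher by over 2-fold in replicate 2 in both, and Col10a1 was higher too (39.7 and 35.0, 80.6 and 75.6). Most of the 9 chondrocyte markers were higher in replicate 2 in both MEF groups, but not all. Comp, a cartilage matrix protein, was at 42.7 and 38.7 TPM in replicate 1 and at 169 and 169 in replicate 2. Sox9 was at 18.41 and 15.8 TPM in replicate 1 and at 23.05 and 22.21 in replicate 2. Hapln1 (14.28 and 13.92, then 23.24 and 24.16), Lect1 (0.27 and 0.62, then 4.32 and 3.83), Acan and Matn3 were also higher in replicate 2. Epyc was lower in replicate 2, at 8.04 and 7.99 TPM against 18.6 and 19.86. Matn1 and Chad differed in direction between the MEF groups. Col6a6, Col24a1, Col8a1 and Col7a1 were lower by over 2-fold in replicate 2. On day 4, replicate 2 was higher in all 4 groups for 9 of the 36 members and lower in all 4 for 13. Of the 36, 0 differed by over 2-fold in all 4 day 4 groups, which is a stricter demand than 2 MEF groups. Col2a1 did so in Day4_fl_DMSO (log2 difference 1.03). The difference between the replicate numbers is described only, with 1 library for each replicate number and group.

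**Figure D5:**
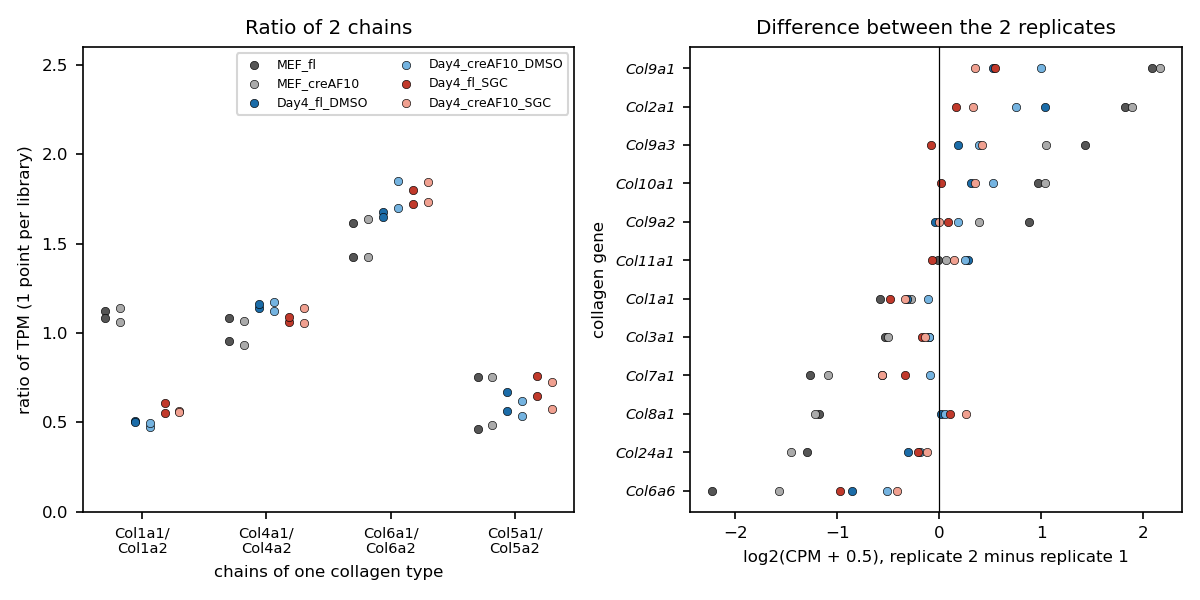
Left, ratio of TPM of 2 chains of 4 collagen types in each library (points). Right, log2 of the level in replicate 2 minus replicate 1 (CPM + 0.5) for 12 collagen genes in each group. Col1a1 over Col1a2 sits near 1.1 in MEFs and near 0.5 on day 4, and Col9a1 and Col2a1 in MEFs lie farthest to the right.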

How the data were processed

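Libraries were made from polyadenylated RNA with a TruSeq kit (per the labels), and reads were assigned with RSEM and Bowtie to build mm9, per the submitters' processing notes (versions not given in the sources used here). The deposited files hold expected counts, TPM and FPKM values by RSEM; the authors' FPKM were not used. The expected counts were rounded, and levels were taken from the deposited TPM.

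The files of 10 libraries hold 25 gene names that read as dates, so rows were joined by transcript identifier. Tests used edgeR 4.0.16 (R 4.3.3): filterByExpr (13936 genes), TMM, 1 term per group over 12 libraries, the quasi-likelihood F test, and Benjamini-Hochberg adjustment, with 0.05 as threshold. The SE is the log2 change over the square root of F. A replicate block per stage and a single replicate block were alternatives, with DESeq2 1.42.0, RLE factors, no filter, totals without collagen reads and leaving out each library. Same-numbered libraries deviated together (correlation 0.314 to 0.801 over 15 pairs of groups), and Y-linked genes had 4035 to 4780 counts in every replicate 1 and 8 to 52 in every replicate 2, so the numbers pair the libraries and mark 2 cell sources of different sex. With 2 libraries per group, a p-value reflects only how these 2 sources vary. The members and gene lists were chosen with earlier results of these data known. Named genes were members that passed in either fit, members at the threshold, and for other lists up to 4 genes of lowest p.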

Additional observations from a re-analysis of the deposited data

Results flagged for a closer look

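Col28a1 was picked out because the effect of SGC0946 differed between fl and AF10-deleted cells on day 4, by the test of the difference itself. The log2 difference was -1.13 ± 0.17 with the block for each stage (edgeR quasi-likelihood test, adjusted p = 0.000904), with -1.23 within replicate 1 and -0.89 within replicate 2, on log2(CPM + 0.5). The DMSO levels differed between the genotypes (2.48 and 2.62 TPM in fl, 5.56 and 5.2 in AF10-deleted cells), and the SGC0946 levels overlapped (10.8 and 10.8, 10.1 and 11.7). Without a block the same difference had an adjusted p of 0.999992.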

How the results depend on the processing

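No result compared across the alternatives changed direction. Among members not named for a call, Col2a1 with AF10 deletion in MEFs (0.01 and -0.01) and Col5a3 with deletion on day 4 in DMSO (-0.01 and 0.02) differed in sign without and with the replicate block per stage. For SGC0946 in fl cells, 2 members passed, against 5 with the single replicate block, 11 with the replicate block per stage, 4 with DESeq2 and 0 to 2 with 1 library left out. In AF10-deleted cells 0 passed, against 15 with the replicate block per stage, 1 with DESeq2 and 0 with 1 library left out. Libraries were left out only in the fit without a block, so calls of the fits with a block were not checked this way. The replicate block per stage gave 8 for AF10 deletion on day 4 in DMSO, 1 for the interaction of deletion and inhibitor and 1 for that of deletion and stage (1.16% of all genes), each against 0. For day 4 against MEFs, 27 members passed in fl and 28 in AF10-deleted cells, and 20 to 28 and 21 to 29 did with 1 library left out; the lowest counts were without Day4_fl_DMSO replicate 2 and without either Day4_creAF10_DMSO library. Col2a1, Col9a1, Col10a1, Col24a1, Col4a2, Col7a1 and Col8a1 lost their calls in both without at least 1 library, and Col4a1 in AF10-deleted cells. Collagen was 5.52% of expected counts in MEF_fl and 1.47% in Day4_fl_DMSO, above its share of TPM. RLE factors and totals without collagen reads changed no call of a named gene. With no filter on low counts 4 calls of day 4 against MEFs were lost, Col2a1 in fl cells (adjusted p = 0.0725) and Col10a1 (0.0724), Col24a1 (0.0558) and Col4a1 (0.0746) in AF10-deleted cells. Col22a1 rests on 3 to 14 reads per day 4 library and Col9a1 on 3 to 21, which limits the precision of their changes.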
